A study of Mus musculus with 2 samples.

Results

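The genes of the 4 mouse Hox clusters were followed in CD133+ cells of the adult spinal cord, as every row named Hoxa, Hoxb, Hoxc or Hoxd plus a number and nothing else. There were 38 such rows among the 24071 rows listed in either count table, of which 11 were Hoxa, 10 Hoxb, 9 Hoxc and 8 Hoxd genes. Hoxd13 was a row in neither table, Hoxd1 was listed only in the traced table and Hoxc13 only in the non-traced one. The cells came from C57BL/6j mice of 10 to 12 weeks. All carried Cre at both Clec9a alleles, the gene for DNGR-1, and a loxP-stop-tdTomato reporter at both Rosa26 alleles. The reporter can mark in red cells that switch Clec9a on, and marked cells pass the mark to their descendants. Recombination may be incomplete, so that non-traced cells may include cells of that lineage. Live CD45- CD133+ cells (CD133 is prominin 1) were sorted by tdTomato into 1 DNGR-1 traced library and 1 non-traced library. How many mice went into each is not given in the sources used here, and no animals of another genotype were part of this experiment. With 1 library per group and no replicates, no test between groups was possible. The intervals of levels and shares below are exact 95% intervals (Poisson for levels, Clopper-Pearson for shares). Those of differences are approximate 95% intervals from the standard error of the counts. All of them cover counting error only.

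Hox genes encode homeodomain transcription factors that give cells their place along the head-to-tail axis. The genes of a cluster are ordered on the chromosome as they are expressed along the body. Genes with a low paralogue number are expressed from the hindbrain downwards, and those with higher numbers begin further caudally, at cervical, thoracic and then lumbar and sacral levels. Genes with the same number in different clusters are paralogues. Neural and mesodermal cells of the trunk keep much of this code into adult life.

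Cells were clustered without the Hox rows and named from marker genes. Ependymal cells form the ciliated lining of the central canal. They were 4761 of 4825 traced cells and 1161 of 25411 non-traced cells. The non-traced library was mostly endothelial (21257 cells) and held 283 mural cells, the contractile cells of the vessel wall. The traced library held 57 endothelial and 0 mural cells. All 10 ependymal markers, among them the ciliary master regulator Foxj1, were present in both ependymal groups, with summed counts of unique molecular identifiers (UMIs), scaled to counts per 1000000 UMIs of the group (CPM), of 9725 for the traced and 10813 for the non-traced group. The 8 endothelial markers summed to 366 CPM in the non-traced ependymal cells against 18.3 CPM in the traced ones, and their part in the Hox values was not tested. A further 724 non-traced cells held markers of both classes and were left out of both. Of these, 679 lay in 1 cluster, with a summed Hox level of 796 CPM. The 638 traced cells of that cluster were named ependymal and kept, so that such cells were left out on the non-traced side only. The genes leading the mural cells included the smooth muscle genes Acta2, Tagln and Myh11. Median depth was 8563 UMIs per traced ependymal cell, 7062 per non-traced ependymal, 6927 per non-traced endothelial and 4635 per mural cell. The libraries shared 42 cell barcodes.

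Ependymal cells carried Hox genes of all 4 clusters, mural cells those of Hoxa, Hoxb and Hoxc at a lower summed level, and endothelial cells little beyond Hoxa and Hoxb. The summed Hox level was 1379 CPM (1368 to 1389) in traced ependymal cells, 1419 CPM (1394 to 1445) in non-traced ependymal cells, 782 CPM (738 to 828) in mural cells and 140.0 CPM (138 to 142) in endothelial cells of the non-traced library. At least 5 CPM was reached by 26 of the 38 genes in traced ependymal, 28 in non-traced ependymal, 21 in mural and 8 in endothelial cells. A median ependymal cell held 12 Hox UMIs from 8 genes in the traced and 10 from 7 in the non-traced library, a mural cell 4 from 3 genes, and an endothelial cell 1. After each cell was thinned to 1000 UMIs, a Hox UMI was found in 72.9% of traced ependymal cells (71.6 to 74.2), 75.5% of non-traced ependymal cells (72.9 to 77.9), 55.5% of mural cells (49.5 to 61.4) and 12.1% of endothelial cells (11.7 to 12.6). Unthinned, these shares were 99.6%, 99.2%, 91.9% and 51.5%. The grid of levels shows where the groups part.

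**Figure D1:**
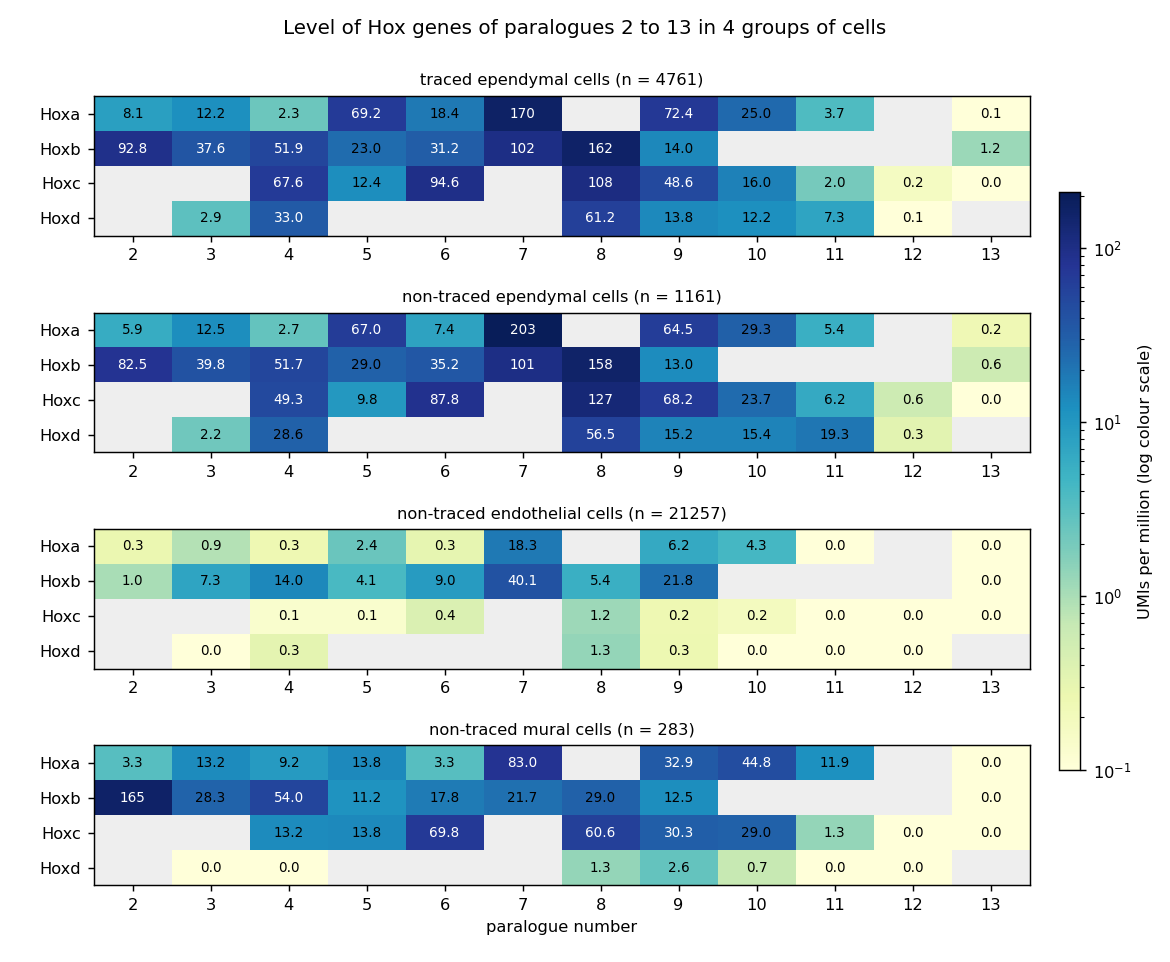
Level of each Hox gene of paralogues 2 to 13 in CPM (printed and as a log colour scale) by Hox cluster and paralogue number, in the 4 groups of cells. Grey squares have no gene in either table. The middle paralogues fill both ependymal grids, the Hoxc and Hoxd rows of the endothelial grid go no higher than Hoxd8 at 1.32 CPM, and the Hoxd row of the mural grid no higher than Hoxd9 at 2.64 CPM.

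Among ependymal cells the highest levels lay with the middle paralogues, the genes of the thoracic part of the code. The kit counts 1 UMI per captured 3′ end, so that levels need no correction for gene length. In traced and then non-traced cells, Hoxa7 stood at 170.3 and 203 CPM, Hoxb8 at 162 and 158 CPM, Hoxc8 at 108 and 127 CPM, Hoxb7 at 102 and 101 CPM and Hoxc6 at 94.6 and 87.8 CPM. Of the rostral genes, Hoxb2, which patterns the hindbrain, reached 92.8 and 82.5 CPM, while Hoxb1 and Hoxd1 stayed below 1 CPM in both. Of the cervical genes, Hoxa5, known for its role in the neck and the phrenic motor column, stood at 69.2 and 67.0 CPM and Hoxc4 at 67.6 and 49.3 CPM. Caudal genes were lower. Hoxa10, a lumbar gene, reached 25.0 and 29.3 CPM and Hoxc10 16.0 and 23.7 CPM, and of paralogues 12 and 13 the highest level was that of Hoxb13 in traced cells, at 1.22 CPM.

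As a share of all Hox UMIs, paralogues 6 to 8 gave 54.2% (53.8 to 54.6) in traced and 54.7% (53.8 to 55.6) in non-traced ependymal cells. Paralogues 1 to 3 gave 11.2% and 10.1%, paralogues 4 to 5 gave 18.8% and 16.8%, and paralogue 9 gave 10.8% and 11.3%. Paralogues 10 to 13 gave 4.90% (4.74 to 5.07) of the traced and 7.13% (6.68 to 7.59) of the non-traced Hox UMIs. These intervals cover counting error only, and not differences between cells or libraries. The 4 clusters contributed alike in both libraries, with 27.7% and 28.1% from Hoxa, 37.5% and 36.0% from Hoxb, 25.3% and 26.3% from Hoxc and 9.48% and 9.69% from Hoxd.

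**Figure D2:**
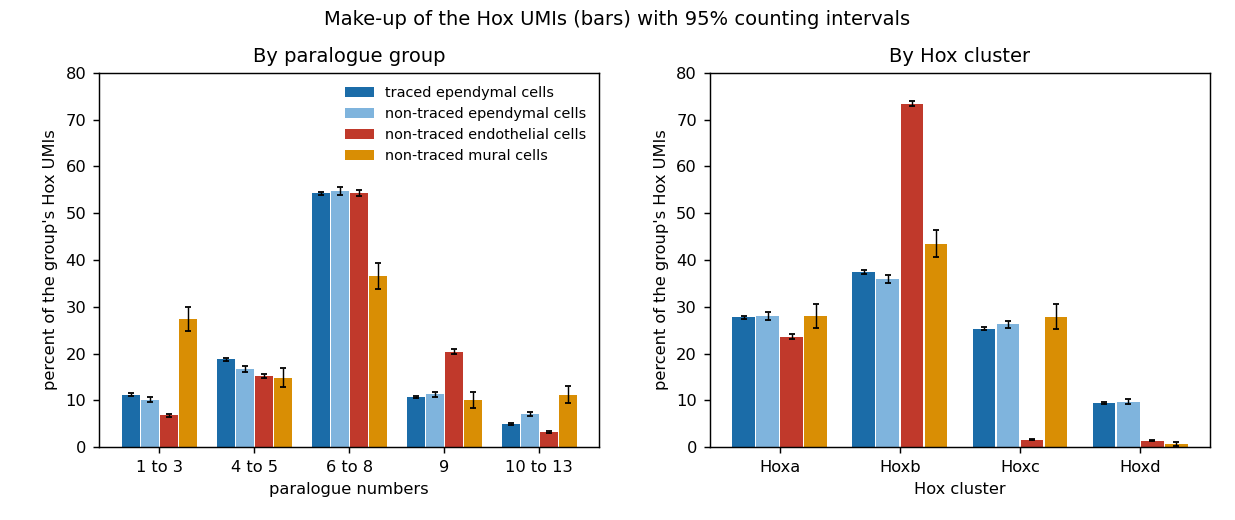
Percent of the Hox UMIs of each group (bars, with exact 95% counting intervals) by paralogue group and by Hox cluster. Traced and non-traced ependymal cells lie close to each other, with 4.90% and 7.13% from paralogues 10 to 13, endothelial cells take 73.4% of their Hox UMIs from Hoxb, and mural cells have the largest shares of paralogues 1 to 3 and 10 to 13.

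Between the traced and non-traced ependymal cells most Hox genes stood within 2-fold of each other. Differences are given on the log2(CPM + 1) scale, for genes of at least 5 CPM in either group, and a difference of at least 1 in size is counted. Of 28 Hox genes compared, 1 was higher in traced cells and 2 were lower, with a median difference of -0.01, where 0.885% of all 11295 genes compared were higher and 1.96% were lower (2.84% in either direction). Hoxa6, of the middle paralogues, was higher in traced cells, at 18.4 against 7.41 CPM (difference 1.21, 0.88 to 1.53). Hoxd11 was lower, at 7.31 against 19.3 CPM (difference -1.29, -1.54 to -1.04), and so was Hoxc11, at 1.99 against 6.25 CPM (difference -1.28, -1.67 to -0.89). Hoxc11 and Hoxd11 are genes of the lumbosacral end of the code. All 6 genes of paralogues 10 to 13 that were compared had lower levels in traced cells, with a median difference of -0.50, and for Hoxa10, Hoxd10, Hoxa11 and Hoxc10 the difference lay between -0.54 and -0.22. Of these 6, Hoxc11 and Hoxa11 reached 5 CPM in non-traced cells only, so that no other direction was open to them. The other genes of paralogues 10 to 13, Hoxb13 among them, were below 5 CPM in both groups and were not compared. With a pseudocount of 5 CPM none of the 3 differences reached 1. With 1 library per group, these differences cannot be told apart from differences between the libraries or between the stretches of cord that each sampled.

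**Figure D3:**
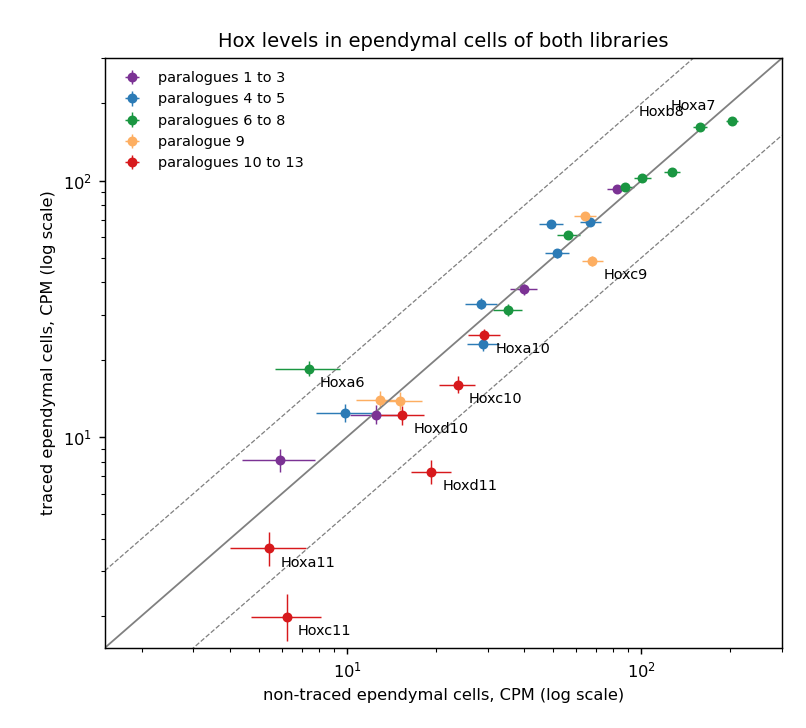
CPM of the Hox genes of at least 5 CPM in traced (y axis) against non-traced (x axis) ependymal cells, both on log scales, with 95% counting intervals. The solid line marks equal levels and the dashed lines mark 2-fold. Red points (paralogues 10 to 13) lie below the line of equality and Hoxa6 lies above the upper dashed line.

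Hoxa5, Hoxa9 and Hoxa10 were read by the study over clusters of traced cells from another experiment, not analysed here, as genes of position along the cord. In the cells described here all 3 genes were present in each of the 7 clusters that held at least 50 traced ependymal cells. Hoxa5 ranged from 46.7 to 79.2 CPM over these clusters, Hoxa9 from 51.8 to 83.6 CPM and Hoxa10 from 21.3 to 42.3 CPM. The summed Hox level ranged from 1232 to 1513 CPM. The share of paralogues 10 to 13 differed more, from 3.93% (3.61 to 4.27) to 9.98% (8.85 to 11.2). Its highest value belonged to a cluster of 181 cells whose leading genes included Sulf1 and Ucma, with Ucma, a secreted protein first known from cartilage, at 310.0 CPM against 3.37 CPM in the other traced ependymal cells. The next, at 7.97% (6.88 to 9.18), was a cluster of 192 cells led by Luzp2, Pth2r and Adra2a. The other 5 clusters lay between 3.93% and 5.13%.

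The non-traced library had an ependymal cluster also led by Ucma. Its 364 cells held Ucma at 402 CPM and gave 8.63% (7.74 to 9.58) of their Hox UMIs from paralogues 10 to 13, against 6.48% (5.97 to 7.02) in the other non-traced ependymal cells, among which 13 more cells with Ucma among their leading genes were counted. Hoxd10, a lumbar gene that patterns motor neurons of the hindlimb, was more than 2-fold higher in these cells in both libraries. It stood at 41.2 CPM in the traced Ucma cluster and 10.9 CPM in the other traced ependymal cells (difference 1.83, 1.49 to 2.16), and at 28.9 and 9.37 CPM in the non-traced library (difference 1.53, 1.06 to 1.99). Hoxa11 and Hoxd11 differed past 1 in the traced library (1.27 and 1.20), with -0.32 and 0.09 in the non-traced one. Hoxc8 had differences of -0.33 and -0.33. The Ucma cluster held 31.4% (28.7 to 34.1) of the non-traced and 3.80% (3.28 to 4.38) of the traced ependymal cells. The non-traced total leaves out the 724 cells with markers of both classes, while the 638 traced cells of their main cluster were kept. Without the Ucma clusters, 4.69% (4.52 to 4.86) of the traced Hox UMIs came from paralogues 10 to 13, Hoxc11, Hoxd11 and Hoxa6 still differed by -1.28, -1.34 and 1.23 between traced and non-traced cells, and Hoxd10 turned to a difference of 0.20 (-0.16 to 0.56).

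**Figure D4:**
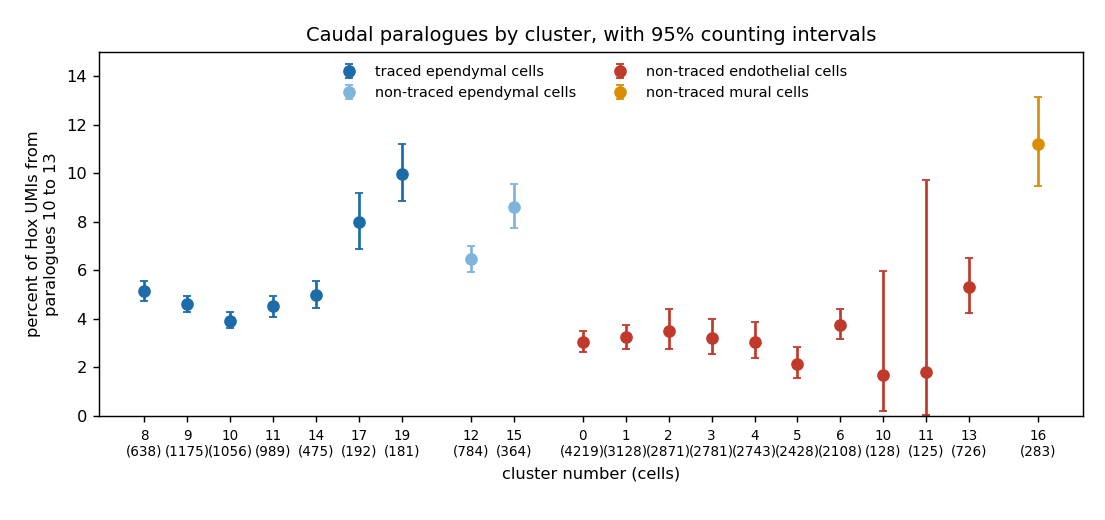
Percent of Hox UMIs from paralogues 10 to 13 (points, with exact 95% counting intervals) in each cluster of at least 50 cells, by class and library, with cell numbers in brackets. Cluster 19 (traced) and cluster 15 (non-traced) are the Ucma clusters, at 9.98% and 8.63%.

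Single ependymal cells differed in how far down the code they reached. The highest paralogue with a UMI was 6 to 8 in 42.2% of traced and 38.7% of non-traced ependymal cells, 9 in 31.5% and 31.3%, and 10 to 13 in 25.1% (23.8 to 26.3) and 28.7% (26.1 to 31.4). With every cell thinned to 3000 UMIs, paralogues 10 to 13 were reached in 13.8% (12.8 to 14.8) of traced and 19.7% (17.4 to 22.1) of non-traced cells. A cell without a UMI of these genes may still express them, at these depths.

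Paralogue 9 went together with the caudal genes in the same cells. In the traced library, 86.3% (84.3 to 88.2) of the 1193 ependymal cells with a UMI of paralogues 10 to 13 also held one of paralogue 9, against 42.1% (40.4 to 43.7) of the 3568 cells without. In the non-traced library the shares were 80.8% (76.1 to 84.9) of 333 cells and 43.8% (40.4 to 47.3) of 828 cells. Thinned to 3000 UMIs, they were 59.0% against 26.2% and 51.8% against 28.7%. Both kinds of cell were of like depth, with medians of 8733 and 8517.5 UMIs in the traced library and 7066 and 7056.5 UMIs in the non-traced one. Paralogues 4 to 5 were found in 83.7% of traced cells with and 83.6% of those without a caudal UMI, and in 77.8% and 77.1% of the non-traced cells.

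Hoxd9 was higher in cells with a caudal UMI by 2.49 (2.27 to 2.71) in the traced and 2.90 (2.38 to 3.42) in the non-traced library, and Hoxa9 by 1.75 and 1.73. Hoxc9 was higher by 0.83 and 0.35. Hoxb9 was higher by 0.81 in the traced library, with -0.29 (-0.85 to 0.28) in the non-traced one. Genes of lower number differed in both directions. With an interval below 0 in both libraries, 5 of them were lower in these cells. Their differences were -0.46 and -0.86 for Hoxc4, -0.35 and -1.23 for Hoxc5, -0.34 and -0.60 for Hoxb8, -0.27 and -0.78 for Hoxc8 and -0.11 and -0.26 for Hoxb7. Hoxa6 had differences of -0.09 and -0.33, with intervals that held 0. In the traced library Hoxc6 was higher by 0.59 (0.51 to 0.68), Hoxa7 by 0.40 (0.33 to 0.47) and Hoxb5 by 0.27 (0.09 to 0.45), and in the non-traced library Hoxa5 was higher by 0.31 (0.07 to 0.56). Hoxb2, Hoxb3, Hoxb4 and Hoxb6 had differences between -0.17 and 0.08. Of 22 genes of paralogues 1 to 9 with at least 5 CPM in traced cells, 7 had an interval above 0 and 5 an interval below 0 in the traced library, and 4 and 5 in the non-traced one. Over all 11044 genes of that level, without those of paralogues 10 to 13, the interval lay above 0 for 14.3% and below 0 for 6.61% in the traced library, and for 7.05% and 4.46% in the non-traced one.

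**Figure D5:**
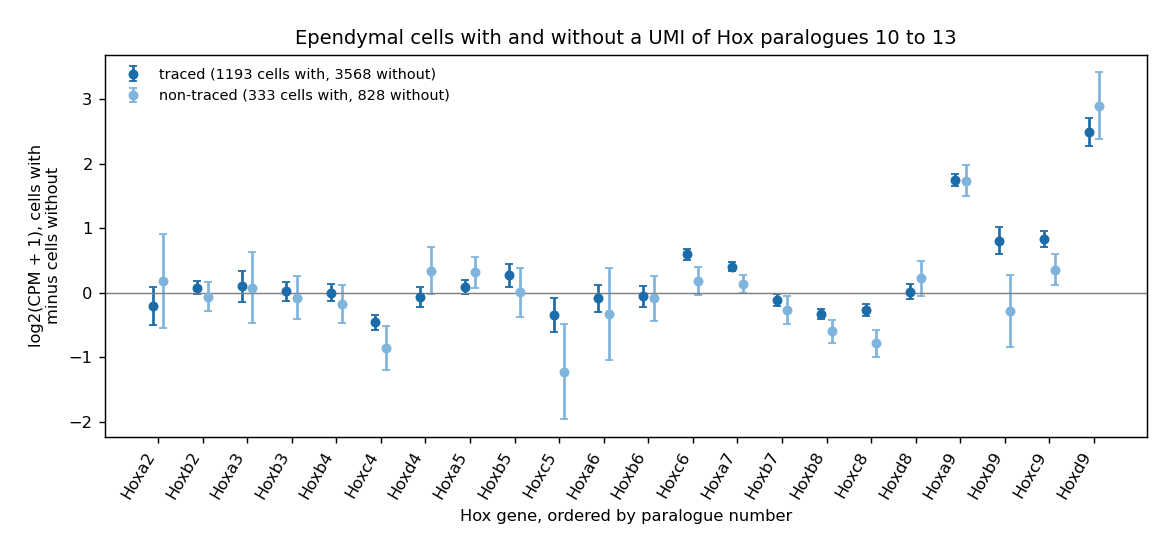
Difference in log2(CPM + 1) between ependymal cells with and without a UMI of paralogues 10 to 13, for Hox genes of paralogues 1 to 9 in order of their number, with 95% counting intervals, in both libraries. Hoxa9 and Hoxd9 lie far above 0, Hoxc4, Hoxc5, Hoxb8 and Hoxc8 lie below it, and Hoxb9 differs in sign between the libraries.

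Endothelial cells of the same non-traced library had a short Hox list that was nearly all Hoxa and Hoxb. Hoxb gave 73.4% (72.8 to 73.9) of their Hox UMIs and Hoxa 23.6%, while Hoxc gave 1.64% and Hoxd 1.41%. The 8 genes of at least 5 CPM were Hoxb7 at 40.1 CPM, Hoxb9 at 21.8 CPM, Hoxa7 at 18.3 CPM, Hoxb4 at 14 CPM, Hoxb6 at 9.02 CPM, Hoxb3 at 7.28 CPM, Hoxa9 at 6.22 CPM and Hoxb8 at 5.43 CPM. Of 28 Hox genes compared between ependymal and endothelial cells, 27 were higher in ependymal cells and 0 lower, with a median difference of 3.33 against 0.13 over all 12112 genes compared. All 28 reached 5 CPM in ependymal cells but only 8 did in endothelial cells, so the others could not come out lower. Of those 8, all but Hoxb9 were higher in ependymal cells. Among all genes, 28.9% were higher and 19.0% lower, or 48.0% in either direction. The largest differences were those of Hoxc6 (5.97), Hoxc8 (5.89), Hoxc9 (5.79), Hoxc4 (5.47) and Hoxb2 (5.38). Hoxb9 had the lower level in ependymal cells, at 13.0 against 21.8 CPM (difference -0.71, -0.96 to -0.46), and Hoxb7 was closest among the genes that were higher (1.31).

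Ependymal markers were read in endothelial cells as a measure of RNA from other cells. The median ependymal marker in endothelial cells stood at 0.118% of its ependymal level, Hoxc summed to 0.617% and Hoxd to 1.43% of theirs, while Hoxa summed to 8.29% and Hoxb to 20.1%. The part of such RNA in the endothelial Hoxc and Hoxd levels was not tested. The 57 endothelial cells of the traced library had 275 CPM (234 to 320.1) of Hox UMIs, and there the median ependymal marker stood at 11.5% of its level in traced ependymal cells, beside 15.7% for Hoxa, 11.5% for Hoxc, 12.7% for Hoxd and 30.6% for Hoxb.

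Of the genes of paralogue 4, Hoxb4, Hoxc4 and Hoxd4 show the split of Hoxb from Hoxc and Hoxd. Hoxa4 did not go with Hoxb4 and was low in both classes of the non-traced library. In cells with and without a caudal UMI, it stood at 0.243 and 0.252 CPM in endothelial and 3.06 and 2.49 CPM in ependymal cells. Hoxb4 stood at 14 CPM in endothelial and 51.7 CPM in ependymal cells of the non-traced library, Hoxc4 at 0.134 and 49.3 CPM and Hoxd4 at 0.326 and 28.6 CPM. The windows around their start sites (250 bases before to 50 after, RefSeq, GRCm38.p6) are printed with CG dinucleotides in capitals, without one for Hoxa4. The printed windows set Hoxb4, with its endothelial signal, beside Hoxc4 and Hoxd4, which were below 1 CPM in endothelial cells. They lie at chr11:96318017-96318316, chr15:103034145-103034444 and chr2:74721728-74722027, all on the plus strand. The Hoxb4 window lies at the start of the annotated gene, while the annotated genes begin further upstream for Hoxc4 (at base 103018934) and Hoxd4 (at base 74711929), so that other start sites of these genes are not shown.
Hoxb4: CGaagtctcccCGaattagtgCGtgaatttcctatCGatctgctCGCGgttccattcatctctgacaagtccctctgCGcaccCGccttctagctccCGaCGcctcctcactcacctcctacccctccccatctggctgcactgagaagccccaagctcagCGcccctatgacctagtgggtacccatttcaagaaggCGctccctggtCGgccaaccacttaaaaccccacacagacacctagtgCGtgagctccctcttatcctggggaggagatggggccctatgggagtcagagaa
Hoxc4: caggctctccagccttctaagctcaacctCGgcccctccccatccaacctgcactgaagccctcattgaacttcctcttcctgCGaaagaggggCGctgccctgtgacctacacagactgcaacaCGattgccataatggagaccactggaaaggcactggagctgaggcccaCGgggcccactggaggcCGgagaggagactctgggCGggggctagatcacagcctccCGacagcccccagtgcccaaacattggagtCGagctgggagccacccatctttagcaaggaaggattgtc
Hoxd4: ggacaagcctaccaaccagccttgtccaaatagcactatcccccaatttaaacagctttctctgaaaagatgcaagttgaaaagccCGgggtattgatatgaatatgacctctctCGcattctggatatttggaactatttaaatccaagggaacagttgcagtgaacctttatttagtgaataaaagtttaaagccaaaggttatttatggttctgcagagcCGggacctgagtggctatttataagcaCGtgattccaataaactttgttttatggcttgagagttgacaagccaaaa
The Hoxb4 window held 14 CG dinucleotides, the Hoxc4 window 9 and the Hoxd4 window 4, against a median of 7 over all 32851 windows and 14.5 over the 24 windows of 22 Hox genes in the table. The letters TATAAA (searched on both strands) were in the Hoxd4 window only, as in 13.6% of all windows, and CCAAT (both strands) was in the Hoxc4 and Hoxd4 windows, as in 37.4% of all. Hoxd3 and Hoxd4 share 62.3% and 52.3% of their exonic bases with other genes on the same strand in the annotation, though only 4.4% of the last 500 exonic bases of Hoxd4 and none of Hoxd3, so that their counts are less certain than those of other members.

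Among endothelial clusters of at least 50 cells, one stood above the rest in summed Hox level. The level was 93.9 to 161 CPM in 9 of the 10 clusters and 236 CPM in a cluster of 726 cells led by Pi16, Fbln5 and Cytl1, in which 5 arterial markers summed to 3044 CPM. There Hoxa gave 38.0% of the Hox UMIs, Hoxa5 stood at 11.6 CPM and Hoxa10 at 12.3 CPM, against ranges of 0 to 3.09 and 1.71 to 5.74 CPM in the other 9. This holds for the clusters as drawn at a resolution of 0.8. At 0.4 the cells with the most arterial markers lay in a cluster of 5649 cells with 158 CPM, and the highest Hox levels were those of clusters of 178 cells (396 CPM) and 139 cells (218 CPM), in which ependymal markers summed to 415 and 478 CPM.

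The mural profile differed from the endothelial one in its leading genes. Hoxb2 was their top member at 165 CPM (145 to 186), against 1.0 CPM in endothelial cells. Hoxa7 followed at 83.0 CPM, Hoxc6 at 69.8 CPM, Hoxc8 at 60.6 CPM, Hoxb4 at 54.0 CPM and Hoxa10 at 44.8 CPM. Of 21 Hox genes compared with endothelial cells, 18 were higher in mural cells and 0 lower, with a median difference of 2.92 against 0.02 over all genes, where 17.1% of all 11082 genes were higher and 15% lower (32.1% in either direction). Apart from the endothelial genes of at least 5 CPM listed above, the Hox genes were compared through mural cells only and could not come out lower. The differences were 6.37 for Hoxb2 and 5.64 for Hoxc6, while those of Hoxb7 (-0.85), Hoxb9 (-0.76) and Hoxb6 (0.91) did not reach 1. Paralogues 1 to 3 gave 27.4% (24.9 to 30.0) of the mural Hox UMIs and paralogues 10 to 13 gave 11.2% (9.47 to 13.1). Without integration 167 of the 283 cells were in a mural cluster of 168 with smooth muscle markers at 161 CPM, against 16414 CPM in the 283 cells, and the other 116 were named as mixed with endothelial cells. In the 168 cells the summed Hox level was 822 CPM, 0.176% of it from Hoxd and 8.80% from paralogues 10 to 13.

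Hoxd was all but absent from mural cells. The 8 Hoxd genes gave 7 of 1187 Hox UMIs, or 0.590% (0.237 to 1.21), and their sum of 4.61 CPM was 3.36% of the ependymal sum, where Hoxa stood at 55.1%, Hoxb at 66.5% and Hoxc at 58.5%. The median ependymal marker in mural cells stood at 1.14% of its ependymal level. Rarres2, an adipokine gene, was the exception among these markers at 24.8%. Endothelial markers summed to 2093 CPM in mural cells, of 21943 CPM in endothelial cells, and erythroid markers to 6704 and 1518 CPM, and their part in the mural values was not tested.

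The naming rule left other mural-type cells out of this class, since their droplets also held endothelial markers. A non-traced cluster of 1520 cells led by Kcnj8, Vtn and Abcc9 had 338 CPM of Hox UMIs, with Hoxb2 first and 0.590% from Hoxd. A non-traced cluster of 251 cells led by Acta2, Myh11 and Tagln had 427 CPM of Hox UMIs, with Hoxa7 first and 0.833% from Hoxd.

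Genes that work with or around the Hox genes were read from lists. Hox proteins bind DNA with the TALE homeodomain partners Pbx, Meis and Pknox. Of 9 TALE genes compared between ependymal and endothelial cells, 5 were higher in ependymal cells and 0 lower, where 28.9% of all genes were higher and 19.0% lower. The 5 were Meis2 (247 against 0.225 CPM), Pbx4 (80.7 against 0.278 CPM), Meis1 (55.3 against 0.284 CPM), Meis3 (7.64 against 0.241 CPM) and Pknox2 (7.87 against 2.48 CPM). Mural cells had Meis3 at 25.0 CPM and Meis2 at 5.27 CPM, and these were the 2 TALE genes that were higher there than in endothelium. The 5 genes named here were all below 5 CPM in endothelial cells, so that in neither comparison could they come out lower. Traced and non-traced ependymal cells differed past 1 in none of the 9, as 2.84% of all genes did.

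Transcripts from the opposite strand of the Hox clusters were read as well. All 7 compared were higher in ependymal than in endothelial cells (median 3.43), where 28.9% of all genes were. All 7 were below 5 CPM in endothelial cells, so they were compared through ependymal cells only and could not come out lower. The largest differences were those of Hoxd3os1 (5.24), Hotairm1 (4.47) and Hoxb3os (3.88), and the other 4 (Hoxa11os, Hoxaas2, Hoxaas3 and Hoxb5os) lay between 2.66 and 3.43. All 4 compared were higher in mural than in endothelial cells, as were 17.1% of all genes, with Hoxb3os at 141 CPM, Hotairm1 at 98.2 CPM, Hoxaas3 at 12.5 CPM and Hoxa11os at 7.25 CPM. These 4 too were below 5 CPM in endothelial cells and could not come out lower. Hoxd3os1 stood at 55.7 CPM in ependymal but 1.32 CPM in mural cells. Exons of 9 Hox genes, among them Hoxb2, Hoxb3 and Hoxa7, overlap such transcripts, and how strand entered the counting is not given in the sources used here.

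Brain factors expressed in front of the Hox domain (Otx, Emx, Lhx, En and Gbx genes) gave 7 rows, none of which reached 5 CPM in any of the 4 groups. Emx1, at 1.20 CPM in traced ependymal cells, and Gbx2, at 1.21 CPM in endothelial cells, were highest. Emx2 and Lhx5 were at 0 in both ependymal groups. Gdf11, a ligand of the trunk-to-tail transition, stood at 28.3 CPM in mural and 11.8 CPM in non-traced ependymal cells, against 1.75 CPM in endothelial cells.

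Retinoic acid sets Hox borders in the embryo. Of 8 genes of its pathway compared between traced and non-traced ependymal cells, 0 were higher and 2 lower in traced cells, beside 0.885% and 1.96% of all genes. The 2 were Aldh1a1, a retinaldehyde dehydrogenase, at 6.89 against 18.6 CPM (difference -1.31) and the retinoid carrier Crabp1 at 2.09 against 5.21 CPM (-1.0). Between ependymal and endothelial cells, 5 of 9 were higher (Rxrg by 4.21, Rarb by 2.77, Crabp1 by 2.58, Aldh1a1 by 1.69 and Rxra by 1.14) and 3 lower (Aldh1a3 -2.67, Rarg -1.73 and Rara -1.56), beside 28.9% and 19.0% of all genes. In mural against endothelial cells, 1 of 7 was higher (Rarb 2.5) and 3 were lower (Aldh1a3 -2.37, Rarg -1.18 and Rara -1.02), beside 17.1% and 15% of all genes.

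Polycomb and Trithorax complexes hold Hox genes off and on. Of 13 Polycomb genes compared, 1 was higher (Ring1, 2.04) and 4 were lower (Bmi1 -1.66, Ezh1 -1.29, Phc2 -1.10 and Jarid2 -1.0) in ependymal than in endothelial cells, and of 9 Trithorax genes 1 was higher (Psip1, 2.31) and 0 lower, beside 28.9% and 19.0% of all genes. In mural against endothelial cells 1 of 13 (Cbx7, 1.04) and 1 of 9 (Psip1, 1.21) were higher, beside 17.1% of all genes. None of either list differed past 1 between traced and non-traced ependymal cells.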

How the data were processed

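Spinal cord cells were dissociated, sorted and run on the Chromium 3′ kit, and the authors deposited 1 table of UMI counts per library, made with Cell Ranger 3.0.2 and the mouse build mm10 according to the submitters' processing notes, which also name STAR 2.5.1b, R 3.6.0 and Seurat 3. The counts were used as deposited, with 233318692 UMIs in 25411 non-traced and 46530507 in 4825 traced barcodes, all of which passed the study's filter of at least 50 genes and at most 10% mitochondrial genes. Whether strand was used in counting, and how many mice were pooled, is not given in the sources used here.

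Seurat 5.3.0 under R 4.3.3 brought both libraries together on variable genes from which the reporter and the Hox rows were left out, giving 23 clusters. Within a cluster, the cells of each library were named separately from marker genes, with sets that held markers of more than 1 type called mixed. The Scrublet caller (in scanpy 1.11.5) marked 7.03% of non-traced and 0 traced barcodes. No cell was removed for it, and with 0 calls, against an expected 3.86% (20.3% in the non-traced library), doublets of the traced library were not assessed. UMIs were summed per class and given as CPM. Differences were log2(CPM + 1), for genes of at least 5 CPM in either group. A gene at that level in only 1 group could not come out lower in that group. Cells were thinned to 1000 UMIs for shares of cells with a UMI, and to 3000 where said. With 1 library per group no p-value was computed. Hox genes of at least 5 CPM in a group (29) could be named, with their values. Hoxb1, Hoxd1, Hoxd3 and Hoxb13 fall outside this rule and were named after their values were seen. The scripts were tested on simulated data. The members, gene lists and comparisons were chosen with earlier results of these data known, and the values without the Ucma clusters, and of other genes in cells with caudal UMIs, were added after seeing the data. Some genes are not reported here by name.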

Additional observations from a re-analysis of the deposited data

How the results depend on the processing

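No paired analysis was possible because each group is 1 library with no replicate number, and for the same reason no library could be left out. Over the alternatives, 127 values that answer a comparison stayed within their counting interval or within 1.5 times of a count, and 26 moved. With CPM computed without mitochondrial, reporter and Gm42418 rows, the summed Hox level was 1492 CPM in traced ependymal, 1530 CPM in non-traced ependymal and 147 CPM in endothelial cells. Without thinning a Hox UMI was found in 99.6% of traced ependymal, 99.2% of non-traced ependymal, 51.5% of endothelial and 91.9% of mural cells, and at 3000 UMIs in 97.5%, 97.3%, 29.1% and 84.6%. Naming whole clusters gave 4.72% of traced Hox UMIs from paralogues 10 to 13, a non-traced ependymal level of 1178 CPM and 62.7% of those cells with a Hox UMI. It moved the median Hox difference between traced and non-traced ependymal cells from -0.01 to 0.19. Of the Hox genes compared, 19 of 27 then lay above 0, against 14 of 28. The stricter filter on cells (at least 1000 genes and at most 5% mitochondrial UMIs) kept unlike parts of the ependymal groups. It left 3791 of 4761 traced but 329 of 1161 non-traced ependymal cells. Their levels were 1398 CPM (traced) and 1486 CPM (non-traced), with 7.86% from paralogues 10 to 13 in the latter. Under this filter 1 Hox gene was lower in mural than in endothelial cells, against 0. Without integration the mural class held 168 cells, with smooth muscle markers at 161 CPM against 16414 CPM in the 283 cells, 167 of them among the latter. There the share of paralogues 10 to 13 was 8.80%, 1 Hox gene was lower in mural cells, and the mural differences of Hoxc11 (-0.0310) and Hoxd9 (-0.334) changed sign. With a pseudocount of 5 CPM, 0 Hox genes were higher and 0 lower in traced ependymal cells, against 1 and 2, since a larger pseudocount shrinks differences of low genes. At 3000 UMIs paralogue 9 was found in 59.0% of traced and 51.8% of non-traced ependymal cells with a caudal UMI, and in 26.2% and 28.7% of those without. Apart from the pseudocount and the thinning, the cause of these shifts was not tested. Classes from the markers of each cell left too few mural cells for a value, and kept 4715 traced but only 389 non-traced ependymal cells.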

Other observations

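Other genes also differed between ependymal cells with and without a UMI of Hox paralogues 10 to 13. The rule for naming them was added after seeing the data: among 7130 genes of at least 20 CPM, those that differed most in traced cells were listed, 20 in all, and then read in the non-traced library, where 20 of 20 had the same direction, as had 60.9% of all 7130 genes. Of the 20, 4 were higher and 2 lower by at least 1 in traced cells. Higher in cells with a caudal UMI were Fndc5, the precursor of irisin (41.3 against 16.0 CPM in traced cells, difference 1.32, and 1.5 in non-traced cells), Brinp1 (1.09 and 1.22), the calcium-binding protein gene Calb1 (0.89 and 1.19), the chloride channel gene Cftr (0.90 and 0.83) and Stmn2, a regulator of microtubules (0.79 and 0.95). Lower were Aff3 (-1.25 and -0.89), the smooth muscle genes Tagln (-1.10 and -0.88) and Acta2 (-0.85 and -0.69), the neuropeptide gene Npy (-0.84 and -1.35) and the small heat shock protein genes Hspb1 (-0.84 and -0.95) and Cryab (-0.83 and -1.21). The cells of a library are not replicates, and these differences have no test.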
